A study of Medicago truncatula with 6 samples.

Results

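In mycorrhizal roots of Medicago truncatula, 23 annotated genes without a functional description had levels that moved across 6 RNA sequencing libraries together with 3 arbuscule genes. These genes were chosen by their levels in the same 6 libraries. A gene was taken if the annotation calls it a hypothetical protein or a putative transmembrane protein and its mean was at least 5 CPM (its count scaled to a common library total). In addition its log2(CPM + 0.5) had to correlate at a Pearson r of 0.95 or more with the mean log2(CPM + 0.5) of RAM1 (MTR_7g027190), STR (MTR_8g107450) and PT4 (MTR_1g028600). Of 54762 loci in the table, 51519 were annotated genes, 16295 of these carried one of the 2 descriptions, and 1216 of those reached 5 CPM. The 23 genes, 15 hypothetical proteins and 8 putative transmembrane proteins, are 1.89% of these 1216. The same rule took 2.28% of the 14890 annotated genes with any other description. Because the choice used all 6 libraries, the course of the 23 genes over the libraries and their difference between genotypes are given as a description.

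Arbuscules are the branched structures that arbuscular mycorrhizal fungi form inside cortical cells of the root, where the plant cell encloses each of them in a new membrane. Across that membrane the plant takes up phosphate and ammonium from the fungus and passes lipids and sugars to it, and single arbuscules are short-lived. RAM1 is a GRAS transcription factor that switches on arbuscule genes, STR is a half-size ABC transporter of the arbuscule membrane, and PT4 is the phosphate transporter of that membrane.

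The study asked which genes differ between Mtphr2 roots and R108 roots when both carry mycorrhiza. Mtphr2 is a mutant in the R108 line, named for PHR2, a MYB-type regulator of the phosphate starvation response, and R108 is the wild type. Each genotype had 3 libraries of root RNA. The labels call the 3 libraries technical replicates, and p-values therefore cover no more than the spread among these 6 libraries. Libraries of one genotype differed by far more than sampling noise (chi-square per degree of freedom 24.9 to 51.5), and whether they came from separate plants or pools is not given in the sources used here, so what n = 3 stands for is uncertain. Neither the mutated locus nor the allele is given in the sources used here, and the fungus, the age of the plants and the phosphate supply are not given either. Library totals were 19809184, 21477169 and 20915643 estimated counts in Mtphr2 and 19310625, 19396774 and 18199040 in R108 (replicates 1, 2 and 3, the order kept for all values by library). Summed levels of leaf genes for chlorophyll-binding proteins were 113 to 196 CPM in Mtphr2 and 116 to 180.1 CPM in R108. For the small chain of Rubisco they were 14.8 to 19.8 CPM in Mtphr2 and 13.5 to 22.3 CPM in R108. Leghemoglobin genes, which mark nodules, summed to 1.97 to 3.68 CPM in Mtphr2 and 4.18 to 11.7 CPM in R108, with 1 of 12 loci at 1 CPM or more. Nodule cysteine-rich peptide genes summed to 404 to 461 CPM in Mtphr2 and 444 to 587 CPM in R108, with 7 of 613 loci at 1 CPM or more, and nodule-specific glycine-rich genes to 11.7 to 15.2 CPM in Mtphr2 and 15.4 to 31.2 CPM in R108. Casparian strip membrane genes, which mark the root endodermis, summed to 143 to 178 CPM in Mtphr2 and 109 to 334 CPM in R108, where replicate 3 was the highest library. The part of these cell types in the levels below was not tested.

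The mean log2(CPM + 0.5) of RAM1, STR and PT4, on which the genes were selected, was 6.56, 3.84 and 4.48 in Mtphr2 and 8.62, 7.62 and 6.44 in R108. Mtphr2 replicate 1 thus lay slightly above R108 replicate 3, and the genotypes overlapped in the measure that defined the set. All 23 genes had their highest level in R108 replicate 1 and the next highest in R108 replicate 2. The lowest library was Mtphr2 replicate 2 for 21 genes and Mtphr2 replicate 3 for the other 2. Summed over the 23 genes, levels were 524, 115 and 164 CPM in Mtphr2 and 2029.8, 1199 and 495 CPM in R108. In 7 genes all Mtphr2 libraries lay below all R108 libraries, where 9.05% of the 22663 loci tested in the table had that pattern. In the other 16 genes the groups overlapped, each time because Mtphr2 replicate 1 was above R108 replicate 3. In root RNA of all cell types together, fewer cells with arbuscules and less RNA of a gene per such cell cannot be told apart.

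**Figure D1:**
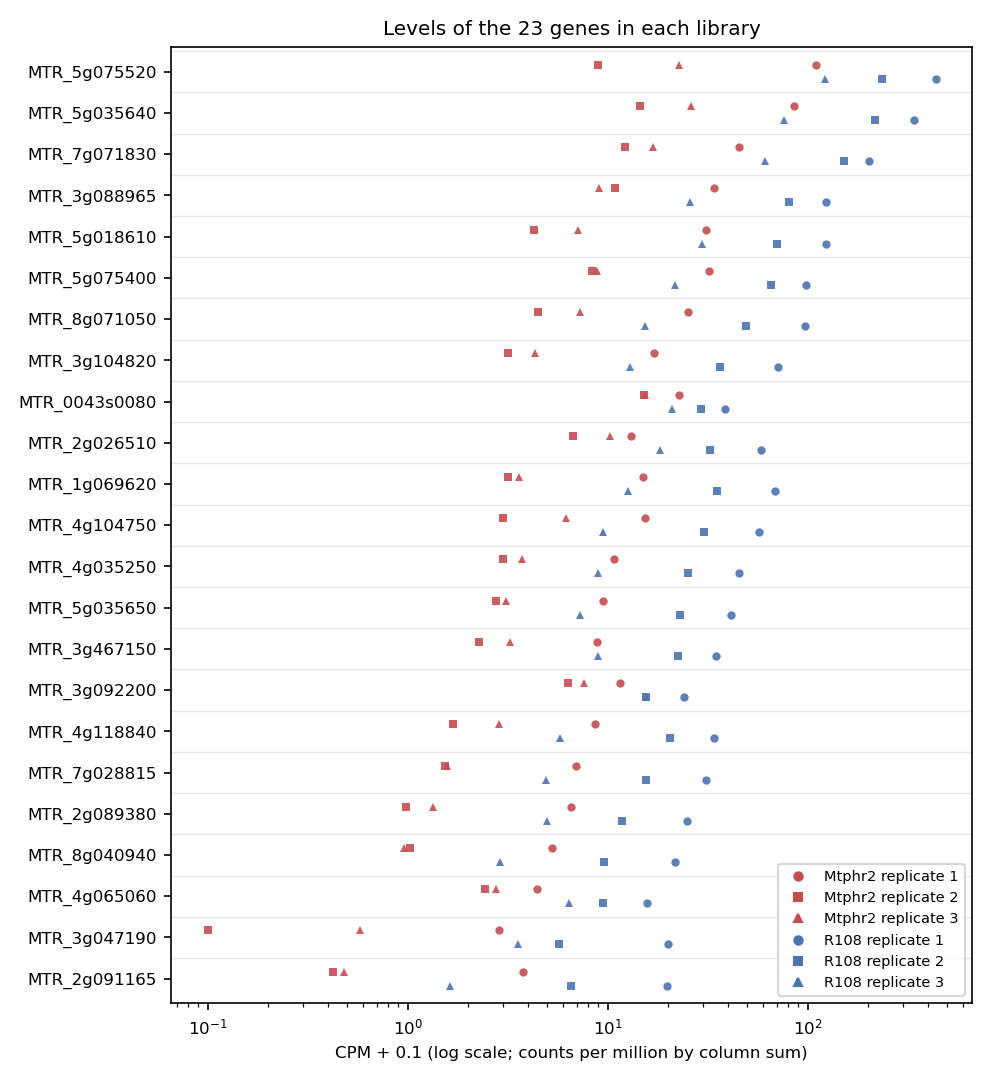
Levels of the 23 genes as CPM + 0.1 on a log axis, with one row per gene ordered by mean level, and one point per library (red, 3 Mtphr2 libraries; blue, 3 R108 libraries; shape, replicate number). In each row R108 replicate 1 is the rightmost point, and in 16 rows Mtphr2 replicate 1 lies to the right of R108 replicate 3.

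The deposited annotation gives some of these genes a relative with a known role. MTR_1g069620 (length 2565 bases, the longest of the set) has the Arabidopsis exocyst subunit EXO84B as its closest Swiss-Prot entry. The exocyst tethers secretory vesicles to the plasma membrane before they fuse, and another exocyst gene, EXO70I, is needed in Medicago for the membrane around the arbuscule. MTR_1g069620 had 14.9, 3.07 and 3.49 CPM in Mtphr2, against 68.4, 35.3 and 12.6 CPM in R108. R108 replicates 1 and 2 were the highest libraries, and Mtphr2 replicate 1 lay just above R108 replicate 3. Its r with the marker mean was 0.993, and EXO70I had an r of 0.992.

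The other EXO84 loci varied less between libraries. Among 7 loci annotated as EXO84, 5 had at least 0.5 CPM, and the 4 besides MTR_1g069620 had r between -0.73 and 0.64. MTR_4g005930, described as EXO84B, had 69.4, 60.6 and 64.1 CPM in Mtphr2, against 70.7, 65.3 and 74.9 CPM in R108, so the genotypes overlapped with all libraries close together. The log2 fold changes of the 4 (Mtphr2 over R108) lay between -0.14 and 0.10 and none was called by edgeR's quasi-likelihood test under Benjamini-Hochberg adjustment (lowest adjusted p 0.498, 0 with an unadjusted p under 0.05, 0 by DESeq2). Over all 40 loci with an exocyst entry in the KEGG orthology annotation, 25 reached 0.5 CPM. EXO70I carries no such entry and is not among them (log2 fold change -2.05). The 24 besides MTR_1g069620 had log2 fold changes of -0.36 to 0.66 and 0 were called by edgeR's quasi-likelihood test under Benjamini-Hochberg adjustment (lowest adjusted p 0.182, 3 with an unadjusted p under 0.05, 1 by DESeq2). Over all tested loci 16.4% had such an unadjusted p. The 3 were higher in Mtphr2, MTR_5g073450 (0.66), MTR_7g013770 (0.44) and MTR_8g021330 (0.38), and DESeq2 called the first of these. Among the 24 loci the highest r was 0.943 for MTR_7g108785, which had 56.8, 48.8 and 53.9 CPM in Mtphr2 and 64.4, 58.7 and 59.2 CPM in R108. Whether MTR_1g069620 differed from the other exocyst genes in its response was not tested.

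Both expressed loci annotated with exopolyphosphatase activity were in the set. Exopolyphosphatases release phosphate from the ends of polyphosphate chains, and polyphosphate is the form in which mycorrhizal fungi store and move phosphate. MTR_4g035250 has rat PRUNE1, a phosphoesterase of the DHH family in animals, as its closest Swiss-Prot entry. It had 10.7, 2.89 and 3.63 CPM in Mtphr2, against 45.5, 25.1 and 8.90 CPM in R108. MTR_4g104750 carries the same activity as a gene ontology term but no Swiss-Prot entry, and had 15.3, 2.89 and 6.07 CPM in Mtphr2, against 56.8, 30.4 and 9.34 CPM in R108. In both genes R108 replicates 1 and 2 were high, and Mtphr2 replicate 1 exceeded R108 replicate 3. Of 3 loci with this annotation these were the 2 with at least 0.5 CPM. No enzyme activity was measured.

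MTR_5g075400 and MTR_3g467150 were the only loci of one orthologous group of unknown function, and the rule took both. MTR_5g075400 has Arabidopsis XLG3, an extra-large alpha subunit of heterotrimeric G proteins, as its closest Swiss-Prot entry, and had 31.9, 8.29 and 8.75 CPM in Mtphr2, against 98.7, 65.8 and 21.5 CPM in R108. MTR_3g467150, with a term for metal ion binding, had 8.73, 2.19 and 3.16 CPM in Mtphr2, against 35.0, 22.3 and 8.85 CPM in R108. The genotypes did not overlap in MTR_3g467150, where Mtphr2 replicate 1 was only slightly below R108 replicate 3, and they overlapped in MTR_5g075400.

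Of the 8 loci whose closest Swiss-Prot entry was an XLG protein, the 7 besides MTR_5g075400 are described as extra-large G proteins. These 7 had r between -0.83 and 0.16 and log2 fold changes of -0.11 to 0.29, and 0 were called by edgeR's quasi-likelihood test under Benjamini-Hochberg adjustment (lowest adjusted p 0.371, 0 with an unadjusted p under 0.05, 0 by DESeq2). MTR_5g018510, for example, had 59.9, 74.1 and 74.9 CPM in Mtphr2, against 62.6, 66.8 and 77.2 CPM in R108, with the genotypes interleaved. The difference between MTR_5g075400 and these loci was not tested.

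**Figure D2:**
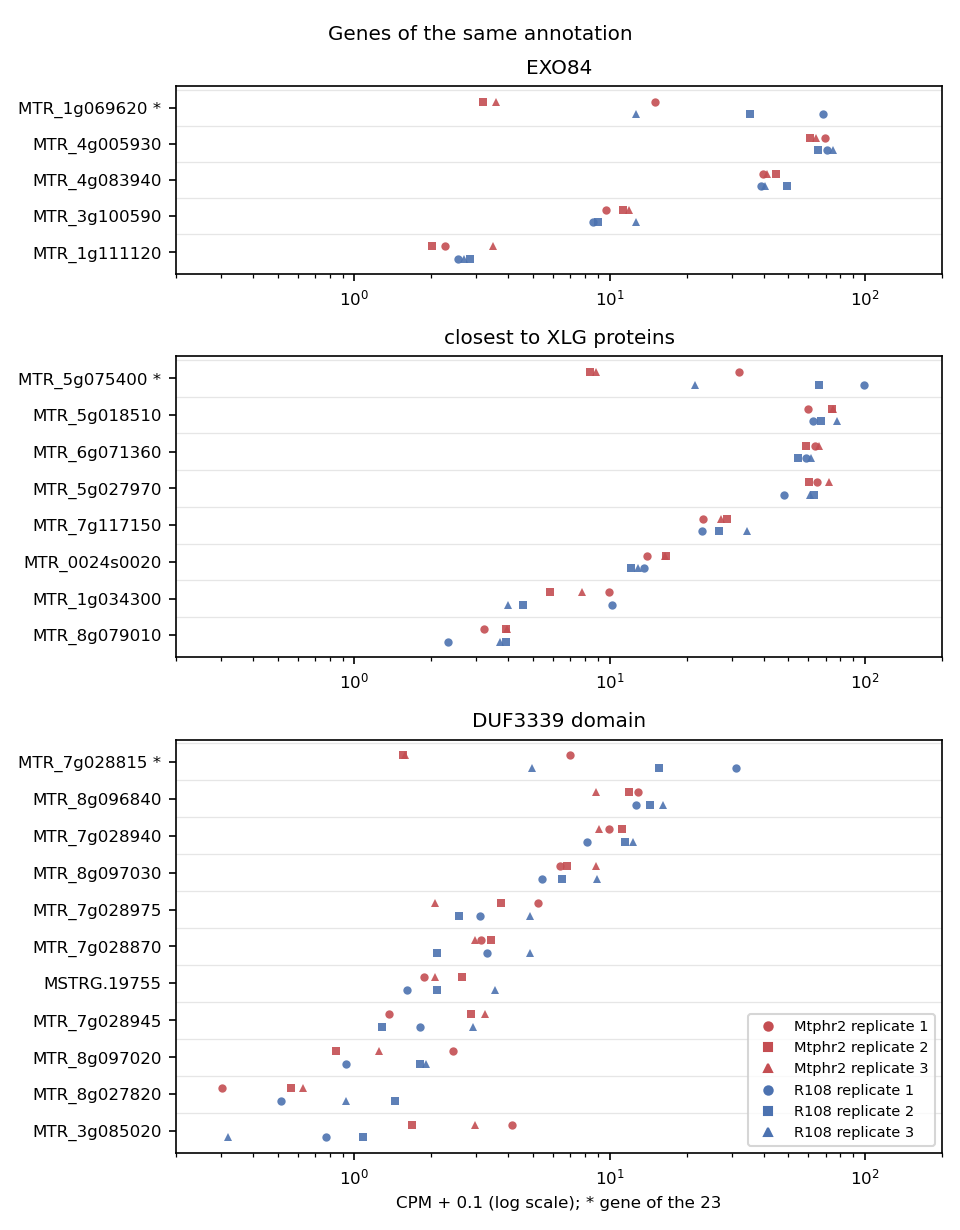
Levels of loci that share an annotation (CPM + 0.1, log axis; red, Mtphr2; blue, R108; shape, replicate number) for EXO84, loci closest to XLG proteins and loci with a DUF3339 domain. The starred gene of each panel is spread widely over the libraries, with MTR_1g069620 between 3.07 and 68.4 CPM, while most other loci lie in narrow overlapping bands. MTR_3g085020 is the DUF3339 locus with all 3 Mtphr2 points to the right of the R108 points.

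The 8 putative transmembrane genes included the highest level per length of the set. MTR_5g035640 (512 bases) had 85.4, 14.4 and 26.0 CPM in Mtphr2, against 339, 218 and 75.8 CPM in R108, a mean over 6 libraries of 247 CPM per kilobase. MTR_5g035650 (432 bases) is the next locus on chromosome 5, with no annotated locus between them, and had 9.44, 2.65 and 3.01 CPM in Mtphr2, against 41.5, 22.8 and 7.14 CPM in R108, a mean of 33.4 CPM per kilobase. Both genes were high in R108 replicates 1 and 2, and in both Mtphr2 replicate 1 was above R108 replicate 3. Neither has an orthologous group or a domain in the deposited annotation. The nearest detected locus before this pair, MTR_5g035610, is also a putative transmembrane gene and just missed the rule at r 0.927. It had 12.8, 9.08 and 7.98 CPM in Mtphr2, against 17.8, 12.5 and 13.2 CPM in R108, so its libraries were much closer together. The nearest detected locus behind the pair, MTR_5g035665, a DUF1262 gene, had 19.2, 5.67 and 15.1 CPM in Mtphr2, against 6.55, 11.4 and 5.18 CPM in R108, and its libraries followed no such order (r -0.02).

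MTR_3g088965 had 33.9, 10.8 and 8.94 CPM in Mtphr2, against 124, 80.9 and 25.9 CPM in R108. It belongs to an orthologous group of 3 loci, all expressed. Its relative MTR_3g088975, close by on chromosome 3, had 47.5, 23.3 and 22.4 CPM in Mtphr2, against 80.8, 41.0 and 21.3 CPM in R108 (r 0.82), and here R108 replicate 3 was the lowest library. The third locus, MTR_1g029440, was level, at 72.9, 58.0 and 60.9 CPM in Mtphr2 and 64.1, 51.0 and 63.2 CPM in R108. MTR_8g071050 had 25.1, 4.38 and 7.17 CPM in Mtphr2, against 97.3, 49.2 and 15.3 CPM in R108. The other locus of its orthologous group, MTR_5g027460, ran in the opposite direction over the libraries (r -0.80), at 93.6, 133 and 145 CPM in Mtphr2 and 86.3, 119 and 115 CPM in R108. Its log2 fold change of 0.20 was not called by edgeR's quasi-likelihood test under Benjamini-Hochberg adjustment (adjusted p = 0.636).

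MTR_7g028815 (354 bases, the shortest of the set) was the only gene with a Pfam domain, DUF3339, a domain of unknown function. It had 6.87, 1.44 and 1.48 CPM in Mtphr2, against 31.0, 15.4 and 4.84 CPM in R108. R108 replicates 1 and 2 were again the highest, with the groups overlapping at Mtphr2 replicate 1. Of 12 loci with this domain 11 had at least 0.5 CPM, and the 10 others had r between -0.71 and 0.55. Among these 10, 0 were called by edgeR's quasi-likelihood test under Benjamini-Hochberg adjustment (lowest adjusted p 0.214, 1 with an unadjusted p under 0.05, 1 by DESeq2). The locus with that lowest value, MTR_3g085020, was higher in Mtphr2, at 4.04, 1.58 and 2.87 CPM, against 0.673, 0.98 and 0.22 CPM in R108, without overlap.

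The remaining transmembrane genes had lower levels per length, 3.29 to 11.2 CPM per kilobase. MTR_2g089380 had 6.46, 0.885 and 1.24 CPM in Mtphr2, against 25, 11.7 and 4.89 CPM in R108. MTR_2g091165 had 3.68, 0.326 and 0.382 CPM in Mtphr2, against 19.7, 6.49 and 1.54 CPM in R108, and its mean of 5.36 CPM was just inside the minimum of 5 CPM. Its estimated counts were fractional in 4 libraries, which can come from reads divided between features, so its levels are less certain. Its closest Swiss-Prot entry is an adenylate-forming reductase of the fungus Coprinopsis cinerea, while its closest entry in the NCBI protein collection is a Medicago protein of the same name. The groups overlapped in both genes, and in both the highest library of each genotype was several times its lowest. MTR_3g092200 was flatter, at 11.4, 6.24 and 7.55 CPM in Mtphr2, against 24.0, 15.5 and 15.4 CPM in R108, and its groups did not overlap. Its r was under 0.95 without Mtphr2 replicate 2 or without R108 replicate 1 (0.949 at the lowest).

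Among the hypothetical proteins, MTR_5g075520 had a mean of 156 CPM (191 CPM per kilobase), and its annotation carries a term for integral membrane components. It had 111, 8.89 and 22.7 CPM in Mtphr2, against 437, 236 and 122 CPM in R108, or 47.4 ± 55.1 CPM in Mtphr2 and 265 ± 159.5 CPM in R108 (mean ± SD, n = 3 each). The groups did not overlap, with Mtphr2 replicate 1 just below R108 replicate 3. PT4, one of the 3 genes behind the rule, was the functionally described gene most like it over the 6 libraries (r 0.999). MTR_5g075520 follows MTR_5g075400 on chromosome 5 with 7 annotated loci between them.

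MTR_7g071830 (399 bases) has no Swiss-Prot entry, orthologous group, term or domain. It had 45.5, 12.1 and 16.7 CPM in Mtphr2, against 203, 152 and 61.4 CPM in R108, without overlap, a mean of 205 CPM per kilobase. MTR_5g018610, the gene with the highest correlation (r 0.999), carries a term for transaminase activity, the transfer of amino groups. It had 30.9, 4.19 and 7.01 CPM in Mtphr2, against 124, 70.1 and 29.6 CPM in R108, or 14.0 ± 14.7 CPM in Mtphr2 and 74.6 ± 47.4 CPM in R108 (mean ± SD, n = 3 each). Here the genotypes touched, with Mtphr2 replicate 1 marginally above R108 replicate 3. The estimated counts of both genes were fractional in all 6 libraries, which can come from reads divided between features, so their levels are less certain than those of genes with whole counts. Of the 23 genes, 5 had a fractional count in at least 1 library (21.7%), close to the 22.2% of the 1193 other genes of these descriptions at 5 CPM or more.

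MTR_3g104820, in part assigned to an orthologous group of pentatricopeptide repeat proteins, which bind RNA in organelles, had 17.0, 3.07 and 4.26 CPM in Mtphr2, against 71.3, 36.3 and 12.8 CPM in R108, with overlap. MTR_3g047190 is assigned to a group with a VQ motif, found in plant proteins that bind WRKY transcription factors. It had 2.78, 0 and 0.478 CPM in Mtphr2, against 20.0, 5.62 and 3.46 CPM in R108, without overlap. The count of 0 in Mtphr2 replicate 2 allows a level of up to 0.140 CPM (3 counts of that library), a limit for counting error only. MTR_4g118840, whose closest entry in the NCBI protein collection is named for a cilia- and flagella-associated protein, spanned 1.58 to 8.58 CPM in Mtphr2 and 5.71 to 33.9 CPM in R108. MTR_8g040940, with terms for cortical microtubules, the filaments that guide cellulose deposition, spanned 0.861 to 5.20 CPM in Mtphr2 and 2.80 to 21.6 CPM in R108. Both overlapped between genotypes at Mtphr2 replicate 1.

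The genes nearest the lower edge of the rule were less uniform. MTR_2g026510 had the lowest correlation (r 0.954), with 13.0, 6.61 and 10.2 CPM in Mtphr2, against 58.4, 32.3 and 18.1 CPM in R108, and no overlap. Without Mtphr2 replicate 2, R108 replicate 1 or R108 replicate 2 its r was under 0.95, at 0.929 in the lowest case. An expressed relative in its orthologous group, MTR_4g133720, had r 0.991 but too low a mean for the rule, with 2.98, 0.326 and 0.622 CPM in Mtphr2 and 10.2, 6.03 and 1.92 CPM in R108. The other, MTR_5g097300, was level, at 9.84, 13.4 and 17.1 CPM in Mtphr2 and 14.3, 12.4 and 19 CPM in R108 (r -0.20).

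MTR_4g065060 (r 0.967) had 4.32, 2.33 and 2.66 CPM in Mtphr2, against 15.6, 9.34 and 6.34 CPM in R108, without overlap. Its closest entry in the NCBI protein collection is the product of another locus, MTR_4g065093, which had 5.27, 4.34 and 3.63 CPM in Mtphr2 and 17.0, 8.84 and 6.74 CPM in R108 (r 0.909). Counts of both loci were fractional in all 6 libraries, so how the reads were divided between them is uncertain. MTR_0043s0080, on an unplaced scaffold, was the flattest gene, at 22.6, 15.2 and 15.2 CPM in Mtphr2, against 38.8, 29.3 and 20.8 CPM in R108, with overlap and likewise fractional counts.

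Just outside the rule by correlation lay MTR_5g040780 (r 0.949, mean 9.87 CPM), MTR_1g084000 (r 0.942, mean 14.4 CPM) and MTR_5g035610, described above. Just outside by level, with r of 0.963 to 0.973, lay MTR_2g461270 (mean 4.82 CPM), MTR_7g031847 (mean 4.75 CPM) and MTR_4g099310 (mean 3.82 CPM). MTR_1g084000 had 14.9, 12.7 and 13.1 CPM in Mtphr2 and 15.4, 16.0 and 14.2 CPM in R108, so its libraries differed little.

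How steeply each gene moved was measured as the slope of its log2(CPM + 0.5) on the marker mean, where 1 means in proportion to the markers. Slopes ran from 0.28 in MTR_0043s0080 to 1.14 in MTR_5g075520, with a median of 0.85. Slopes above 1 were found in 3 genes (MTR_5g075520, MTR_3g047190 and, by the smallest margin, MTR_5g018610), and slopes under 0.5 in MTR_0043s0080 and MTR_3g092200 (0.37). In 13 genes the slope was between 0.8 and 1.2. Levels per length ran from 3.28 CPM per kilobase in MTR_4g065060 to 247 in MTR_5g035640, with a median of 13.7. The spread between libraries of one genotype was of the order of that between genotypes: the highest over the lowest library was 1.49-fold to 12.4-fold in Mtphr2 (median 4.81-fold) and 1.56-fold to 12.8-fold in R108 (median 5.10-fold), while the R108 mean over the Mtphr2 mean was 1.68-fold to 8.93-fold (median 4.73-fold). The Mtphr2 range and median leave out MTR_3g047190. It had 2.78 CPM in Mtphr2 replicate 1 and 0 in Mtphr2 replicate 2, so its fold there was not defined.

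A list of 15 known arbuscule genes gives the scale. It holds the regulators RAM1, RAD1 and MYB1, the phosphate transporters PT4 and PT8, the ammonium transporter AMT2;3, the proton pump HA1, the lipid genes RAM2, FatM, STR and STR2, the accommodation genes EXO70I and VPY, the sugar transporter SWEET1b and the blue copper gene BCP1. Slopes of the 15 ran from 0.60 (RAD1) to 1.47 (MYB1), with a median of 0.94. Their levels ran from 1.04 CPM per kilobase (AMT2;3) to 411 CPM per kilobase (MYB1), with a median of 26.8. Of the 12 that were not used for the rule, 11 had r of 0.95 or more, and AMT2;3 had 0.923. The mean of AMT2;3 was only 1.51 CPM, with 2 counts in its lowest library. MTR_5g035640, MTR_7g071830 and MTR_5g075520 (191 CPM per kilobase) lay between HA1 (86.2 CPM per kilobase) and PT4 (314 CPM per kilobase).

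**Figure D3:**
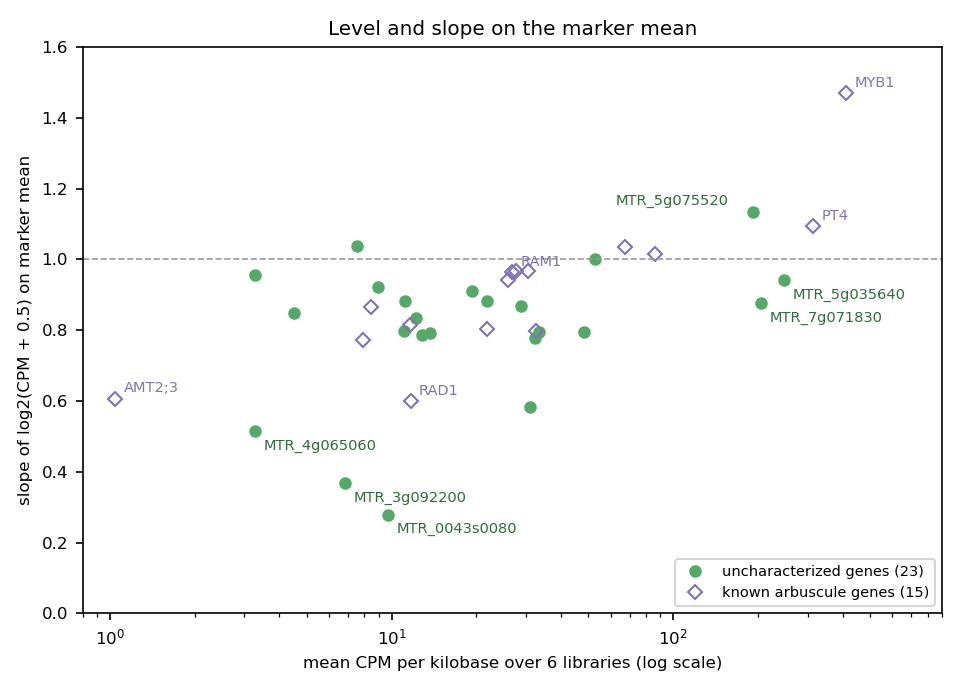
Mean level per length (CPM per kilobase, log axis) against the slope of log2(CPM + 0.5) on the marker mean, for the 23 uncharacterized genes (green points) and 15 known arbuscule genes (open diamonds); the dashed line marks a slope of 1. MTR_5g075520, MTR_5g035640 and MTR_7g071830 lie at levels near PT4, and MTR_0043s0080 and MTR_3g092200 have slopes under 0.5. These 2 genes, MTR_4g065060 (0.52) and MTR_2g026510 (0.58) have slopes below all known arbuscule genes.

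The 23 genes also resembled each other. Over their 253 pairs, r ran from 0.910 (MTR_3g092200 with MTR_2g091165) to 0.999, with a median of 0.981, and 225 pairs had r of 0.95 or more. All these values are over the same 6 libraries and follow in part from the rule. Between libraries of the same number, the median of the 23 genes on the log2(CPM + 0.5) scale differed between Mtphr2 and R108 by -1.77, -3.06 and -1.46 for numbers 1, 2 and 3, and the marker mean by -2.06, -3.78 and -1.96. The functionally described genes most like the mean of the 23 genes were MTR_8g087420, an LRR receptor-like kinase (r 0.9999), MTR_5g040460, a TIR-NBS-LRR resistance protein (r 0.9997), and MTR_1g110290, a core-2/I-branching enzyme (r 0.9996). MTR_8g087420 had 13.3, 2.79 and 3.87 CPM in Mtphr2 and 58.5, 31.0 and 11.8 CPM in R108. For MTR_4g104750 the most similar described gene was VPY (r 0.997), an ankyrin-repeat protein required for intracellular growth of the fungus. Apart from MTR_4g104750 and MTR_5g075520, the most similar described gene lay outside the list of known arbuscule genes. Examples were a UDP-glucosyltransferase for MTR_5g018610, a glutathione S-transferase for MTR_5g035640 and an F-box protein for MTR_2g026510.

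Fitted across all 22663 loci that passed the filter on low counts, all 23 genes were tested and all had negative log2 fold changes (Mtphr2 over R108), from -3.22 in MTR_3g047190 to -0.78 in MTR_0043s0080. Their median was -2.29 and that of all tested loci 0.02. The median of the 23 was -3.27 without Mtphr2 replicate 1 and -1.57 without R108 replicate 1. Standard errors were 0.285 to 1.28, and edgeR's quasi-likelihood test under Benjamini-Hochberg adjustment called 0 of the 23 (adjusted p 0.191 to 0.333), where it called 0.0309% of all tested loci lower in Mtphr2. At an unadjusted p under 0.05 there were 21 of the 23, where 8.41% of all tested loci had such a p and were lower in Mtphr2. With the replicate number as a block edgeR's quasi-likelihood test under Benjamini-Hochberg adjustment again called 0 (adjusted p 0.0565 to 0.159), where 0.221% of all tested loci were called lower in Mtphr2. DESeq2 called 9 of the 23, where it called 2.47% of the 24620 loci it tested lower in Mtphr2. These 9 were MTR_3g467150, MTR_7g071830, MTR_4g035250, MTR_7g028815, MTR_4g118840, MTR_5g035650, MTR_3g092200, MTR_4g065060 and MTR_2g026510. Nothing about the 23 genes is read from these shares, since the same libraries chose them.

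The known arbuscule genes, of which RAM1, STR and PT4 were used for the rule, were spread in the same way. All 15 had negative log2 fold changes (median -2.47) and 0 were called by edgeR's quasi-likelihood test under Benjamini-Hochberg adjustment. At an unadjusted p under 0.05 there were 13, where 8.41% of all tested loci had such a p and were lower in Mtphr2. DESeq2 called 3, RAD1, PT8 and SWEET1b, where it called 2.47% of the loci it tested lower in Mtphr2. With the replicate block edgeR's quasi-likelihood test called SWEET1b alone (Benjamini-Hochberg adjusted p = 0.0345), where 0.221% of all tested loci were called lower. SWEET1b had 4.09, 1.58 and 0.861 CPM in Mtphr2, against 30.6, 11.8 and 4.40 CPM in R108, and its groups did not overlap. It follows MTR_3g088965 on chromosome 3 with 20 annotated loci between them, and RAD1 precedes MTR_4g104750 on chromosome 4 with 46 loci between them.

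By locus number, 22 of the genes lie on numbered chromosomes: 1 on chromosome 1, 3 on chromosome 2, 5 on chromosome 3, 4 on chromosome 4, 5 on chromosome 5, 2 on chromosome 7 and 2 on chromosome 8. The rule did not use the position of a locus, but the neighbours counted here leave out every gene the rule took. The nearest loci on each side with a mean of at least 1 CPM gave 42 distinct loci outside the set. Of these 1 (2.38%) had r of 0.95 or more with the marker mean, as did 434 (2.13%) of all 20337 loci at that level. The 434 include the 23 genes, while the 42 leave out MTR_5g035640 and MTR_5g035650, each the nearest locus of the other. The shares thus do not count alike, and nothing is read from their closeness. The neighbour with that r was MTR_3g467140, a cytochrome P450 gene before MTR_3g467150, with 38.9, 26.0 and 28.6 CPM in Mtphr2 and 57.3, 42.0 and 36.5 CPM in R108 (r 0.981). Its libraries kept the order of the markers over a narrower range, with a slope of 0.22 against 0.79 in MTR_3g467150.

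The log2 fold changes of the 42 neighbours had a median of 0.10, and 15 were negative, where 47.7% of all tested loci were negative. Of the 42, 0 were called by edgeR's quasi-likelihood test under Benjamini-Hochberg adjustment. By the same test 9 had an unadjusted p under 0.05, 4 of them lower in Mtphr2. Over all tested loci these shares were 16.4% and 8.41%. DESeq2 called 2, MTR_5g075390, a bZIP transcription factor gene, and MTR_2g026500, which encodes a subunit of mitochondrial complex I. Each was lower in Mtphr2, where DESeq2 called 2.47% of the loci it tested lower. The neighbour with the most negative value was MTR_7g071760, a wound-induced-like gene before MTR_7g071830, at -2.21, not called by edgeR's quasi-likelihood test under Benjamini-Hochberg adjustment (adjusted p = 0.268). The most positive was MTR_2g091170, annotated as a seed biotin-containing protein and next to MTR_2g091165, with 24.4, 0.885 and 2.29 CPM in Mtphr2, against 0, 1.19 and 0 CPM in R108. Its fitted value of 4.49 (4.52 by DESeq2) rests mainly on Mtphr2 replicate 1, and R108 replicates 1 and 3 had no counts. It was not called by edgeR's quasi-likelihood test under Benjamini-Hochberg adjustment (adjusted p = 0.284). The difference between the genes and their neighbours was not tested.

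**Figure D4:**
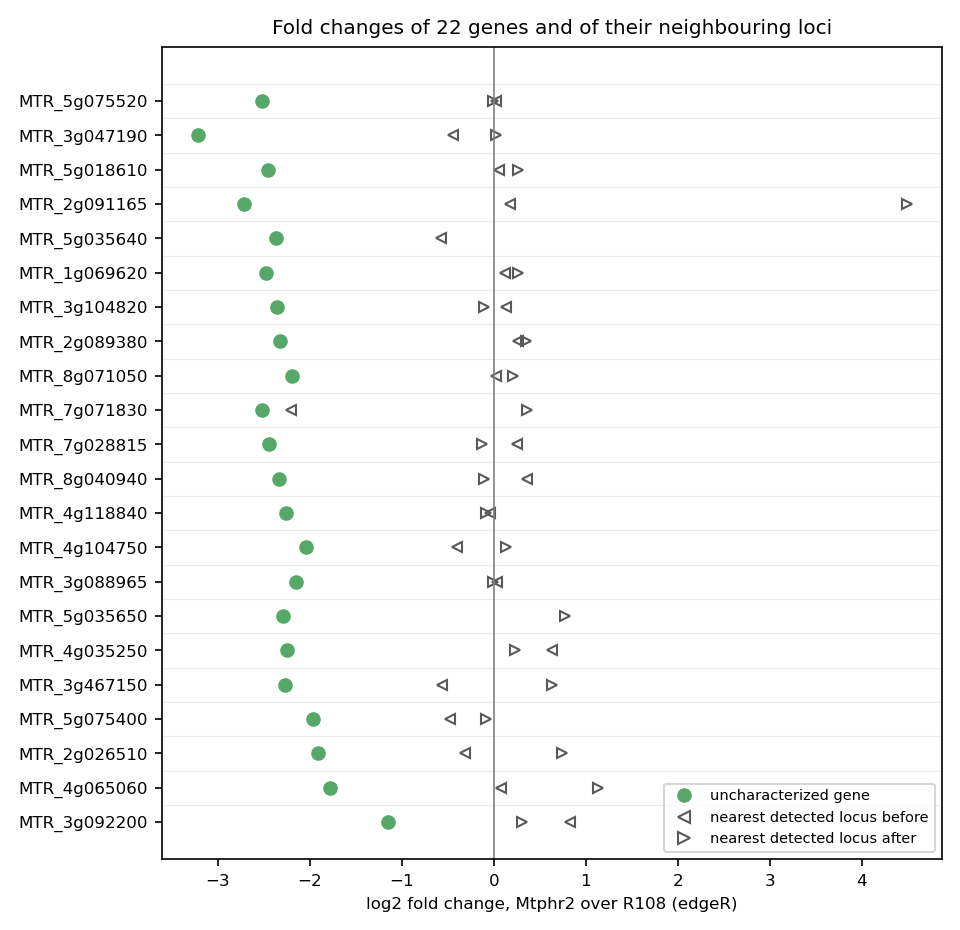
Log2 fold changes (Mtphr2 over R108, edgeR) of the 22 genes on numbered chromosomes (green points) and of the nearest detected locus before and after each (open triangles), outside the set. The genes lie between -3.22 and -1.15, and most neighbours lie near 0, with MTR_7g071760 before MTR_7g071830 at -2.21 as the lowest neighbour and MTR_2g091170 after MTR_2g091165 at 4.49 as the highest.

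The deposited annotation of the 23 genes was set beside that of the 1193 other genes of these descriptions at 5 CPM or more. Some shares were close and others were not. A Swiss-Prot entry was given for 4 of the 23 (17.4%) and 15.8% of the others, an orthologous group for 17 (73.9%) and 76.6%, and a gene ontology term for 15 (65.2%) and 62.4%. A membrane term was given for 9 (39.1%) and 41.5%. A KEGG orthology entry was given for 2 (8.70%) and 4.78%, and an orthologous group of unknown function for 15 (65.2%) and 74.3%. The largest gap was in Pfam domains, with 1 of the 23 (4.35%) and 16.9% of the others. No annotation of these kinds was given for 4 of the 23 (17.4%) and 9.30% of the others, and the median length was 1042 bases in the 23 and 1170 in the others. None of these shares was tested. In a RefSeq gene table of another assembly, 12 of the 14 genes with a gene identifier were found, and all 12 had a placeholder name only.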

How the data were processed

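TRIzol was used to extract RNA from mycorrhizal roots and an Illumina NovaSeq instrument to sequence it, and HISAT2 and StringTie aligned and assembled the reads on the Medicago truncatula genome, version 4.0, per the labels' protocols. HISAT2, StringTie and DESeq2 are also named per the submitters' processing notes. The sources used here give no versions and do not name the counting program. Deposited values are the authors' estimated counts (expected counts, with decimals) per locus and an annotation per locus.

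CPM was computed from column sums. For the models, estimated counts were rounded to integers. Loci were filtered with filterByExpr at its defaults, scaled by TMM (factors 0.955 to 1.015) and compared with edgeR 4.0.16 by its quasi-likelihood test under Benjamini-Hochberg adjustment at 0.05 over all tested loci (R 4.3.3, limma 3.58.1, version 1.17.8 of data.table), with DESeq2 1.42.0 as an alternative. The common biological coefficient of variation was 0.275. The models were also run on simulated counts, drawn independently for each locus and library. These lack the order of libraries shared by many loci here, and no result above rests on that run. Tables and figures used Python 3.11.15, pandas 2.3.3, numpy 2.4.6 and matplotlib 3.10.9.

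The genes and lists were chosen with earlier results of these data known, and annotation groups (with at most 50 loci), neighbours and near pairs were chosen after the genes were known. Values by library were set to be given for the 6 genes with the highest mean CPM, the 4 with the highest and the 4 with the lowest correlation, up to 6 without overlap in order of adjusted p, every transmembrane gene, and neighbouring or related genes. Values of other genes of the set were added after they were seen. The functionally described genes named as alike are those with the highest Pearson r and a mean of at least 5 CPM. Counts were called whole within 0.005.

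The main model held genotype only, and library numbers entered as a block in an alternative fit alone. After genotype means were removed (log2 CPM, prior count 2), same-number libraries had correlations across genes of 0.377, 0.151 and 0.168. Between different numbers the highest was 0.187 (Mtphr2 replicate 2 with R108 replicate 3), above the values for numbers 2 and 3. The labels do not say what a number marks. Between libraries of one genotype the chi-square per degree of freedom was 24.9 to 51.5, so no library was a copy of another. Neighbours follow the order of locus numbers. In a RefSeq table of another assembly, 96.4% of 22334 consecutive loci lay within 10 genes of each other. Promoter and protein sequences were not analysed here.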

Additional observations from a re-analysis of the deposited data

How the results depend on the processing

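The number of genes in the set depended on the rule. Against 23, there were 38 at an r of 0.90 or more, 14 at 0.98 or more, 40 at a mean of 1 CPM or more and 15 with Spearman's rho in place of Pearson's r (14 of them shared). It was 18 at a mean of 10 CPM or more, 23 with a pseudocount of 1, 24 with TMM-scaled library sizes and 25 when deviations from the genotype means were correlated (18 shared). With one library left out it was 24 to 39, the highest without R108 replicate 3. Without R108 replicate 1, where it was 24, only 17 of the 23 genes were among them, since level and correlation were both taken anew. Of all loci, edgeR's quasi-likelihood test under Benjamini-Hochberg adjustment called 18. It called 18 with DESeq2's size factors, 34 with no filter on low counts, 76 with the replicate block and 7 to 44 with one library left out (44 without Mtphr2 replicate 1, 7 without Mtphr2 replicate 2 or 3, 8 without R108 replicate 2 or 3), and DESeq2 called 1204. Of the 23 genes DESeq2 called 9 lower in Mtphr2, and edgeR called 0 under each setting named here. The cause of these differences was not tested. The median log2 fold change of the 23 genes, -2.29, was -2.28 with the replicate block, -2.31 with DESeq2's size factors, -2.30 with DESeq2 and -3.27 to -1.57 with one library left out. Over the 230 values of single genes under these settings, 0 changed sign, which follows in part from the choice of the genes on the same libraries. The replicate block changed no call among the 23 genes and, among the 15 known arbuscule genes, that of SWEET1b alone. With 3 libraries for each genotype and a wide spread within both, the smallest levels, such as 0.326 CPM in MTR_2g091165, rest on few counts.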

Other observations

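The same thresholds on correlation and level took 3 of 383 assembled loci outside the annotation (0.783%). MSTRG.21910 encodes a zinc finger protein whose closest Swiss-Prot entry is Arabidopsis MAGPIE, a regulator of root patterning, and had 34.2, 11.9 and 17.6 CPM in Mtphr2, against 109, 50.2 and 27.0 CPM in R108, with overlap. MSTRG.17995 had 12.4, 0.419 and 2.39 CPM in Mtphr2, against 67.7, 34.2 and 17.0 CPM in R108, without overlap, and its closest protein entry is a ribonuclease H of red clover. MSTRG.26376, closest to the splicing factor PRP8A, moved little, at 9.39, 6.10 and 6.81 CPM in Mtphr2 and 10.9, 9.07 and 9.21 CPM in R108.

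Below the level used here, at a mean of 1 to 5 CPM, 17 of 707 genes of the same descriptions (2.40%) had r of 0.95 or more. In the opposite direction, 4 hypothetical protein genes at 5 CPM or more had r of -0.95 or less, 0.329% of the 1216 genes of the same descriptions. Of the 14890 genes of other descriptions 64 (0.430%) had such an r. MTR_1g111060 had 34.3, 69.8 and 75.4 CPM in Mtphr2, against 26.8, 31.8 and 33.7 CPM in R108, and MTR_3g093970 had 30.6, 42.5 and 46.1 CPM in Mtphr2, against 21.9, 25.6 and 26.2 CPM in R108. In the first of these Mtphr2 replicates 2 and 3 stood apart from the other 4 libraries. The other 2, MTR_3g056730 and MTR_4g058650, varied less, with slopes of -0.10 and -0.04 on the marker mean.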
